A study of Rattus norvegicus with 6 samples.

Results

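The transcripts described here belong to 10 genes of NRF2 signalling and glutathione synthesis: Nfe2l2, Keap1, Gclc, Gclm, Gss, Gsr, Nqo1, Hmox1, Txnrd1 and Srxn1. They were found by gene symbol among 31042 probe sets of an Affymetrix rat expression array, on which short probes read the 3' part of a transcript. Each of the 10 genes had at least 1 probe set, and 15 probe sets carried their names. Of a gene's several probe sets the brightest, by its mean across the 6 arrays, stood for it. All 10 genes passed the filter on dim probe sets and are among the 10372 genes tested. None passed through only one diet group, as the lowest level of any of them on any array was 7.86 log2 units against a limit of 5.83.

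Liver RNA came from 6 Sprague-Dawley rat pups aged 3 weeks, the age of weaning, with 1 array each. The control group held 3 pups whose dams ate standard chow, and the high fat group 3 pups whose dams ate a high fat diet. The comparison asks how the mother's diet relates to transcript levels in the liver of her offspring. The pups' litters, their sex and the make-up of the high fat diet are not given in the sources used here. Littermates, if any, share a mother. The labels number the pups 1 to 3 within each diet, and those numbers name the replicates here.

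NRF2, the product of Nfe2l2, is a transcription factor that raises the output of antioxidant and detoxification genes. In unstressed cells KEAP1 holds it and passes it to a ubiquitin ligase for breakdown, and oxidants or electrophiles that modify KEAP1 let NRF2 accumulate. It is therefore controlled largely at the level of the protein, which these arrays do not measure. Glutathione, the main small thiol of hepatocytes, is made by glutamate-cysteine ligase, with Gclc as its catalytic and Gclm as its modifier subunit, and then by glutathione synthetase.

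The tissue read as liver on every array, with 7 hepatocyte markers between 14.46 and 15.27 log2 units and a median difference of -0.03, or -0.20 to -0.17 with the arrays scaled otherwise. Of 7 endothelial markers, 6 lay lower in every high fat array than in every control array, which held for 11.6% of all genes. The other, Pecam1 (-0.09), overlapped. The summed signal of these markers was 19468 to 22960 in control arrays and 11078 to 14474 in high fat arrays. Of 5 erythroid markers, Slc4a1 (-0.96) and Tfrc (-0.61) were lower in every high fat array, and Ahsp (-0.33) and Alas2 (-0.30) overlapped. Epor overlapped too, with the higher mean in the high fat group. Its control mean lay below the brightness limit, so it passed the filter through the high fat group only and no size is given. The summed signal of the 5 erythroid markers was 16392 to 20519 in control and 9263 to 16034 in high fat arrays. Tfrc, the transferrin receptor, which other cells also carry, made up 89.5% to 94.5% of that sum. In bulk tissue, fewer cells of a type and less RNA per cell cannot be told apart, and the part of either list in the results was not tested. High fat replicate 1 carried exocrine pancreas transcripts, with a summed signal of 48716 over 8 genes against 307 to 431 elsewhere. High fat replicate 3 was the one array with little Xist, at 4.45 against 12.46 to 13.31 in the others. It was also the one with the Y-linked Eif2s3y above the brightness limit, at 11.14 against at most 3.99. Xist comes from the inactive X chromosome of females, so by these transcripts 1 high fat pup read as male and the other 5 pups as female. Without that array Gclc was at 1.31, Gclm at 0.82 and Srxn1 at 1.16, and the value of Nqo1 is given with its levels. The difference between 3' and 5' control probe sets, which widens as RNA degrades, was averaged over beta-actin and GAPDH. It was 3.06 log2 units in control replicate 3 and 1.92 to 2.46 on the other arrays. This average is the covariate for RNA integrity used below. Hexokinase, left out of it, ordered the arrays otherwise, at 3.79 in control replicate 1 and -3.11 to -0.74 on the others.

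No gene of the set passed at an adjusted p under 0.05 (limma, adjusted over all genes tested), a threshold that 0.0386% of all genes passed, 0.0289% higher and 0.00964% lower in the high fat group. At an unadjusted p under 0.05, 5 of the 10 passed, 4 higher and 1 lower, against 14% of all genes, 6.55% higher and 7.49% lower. That count was 2 without control replicate 1, and 3 without high fat replicate 1 or without high fat replicate 2. A looser rule, an unadjusted p under 0.05 with at least 1.5-fold, took 4 of the 10 and 6.69% of all genes. Gclc, Gclm and Srxn1 met it as higher in pups of high fat dams, as did 3.34% of all genes, and Nqo1 as lower, as did 3.36%. In the same 4 genes the 3 high fat arrays lay all above or all below the 3 control arrays, which held for 20.8% of all genes. The median log2 difference over the 10 genes, high fat minus control, was 0.32, with 6 above 0 and 4 below. Over all genes tested it was -0.02, with 46.9% above 0.

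**Figure D1:**
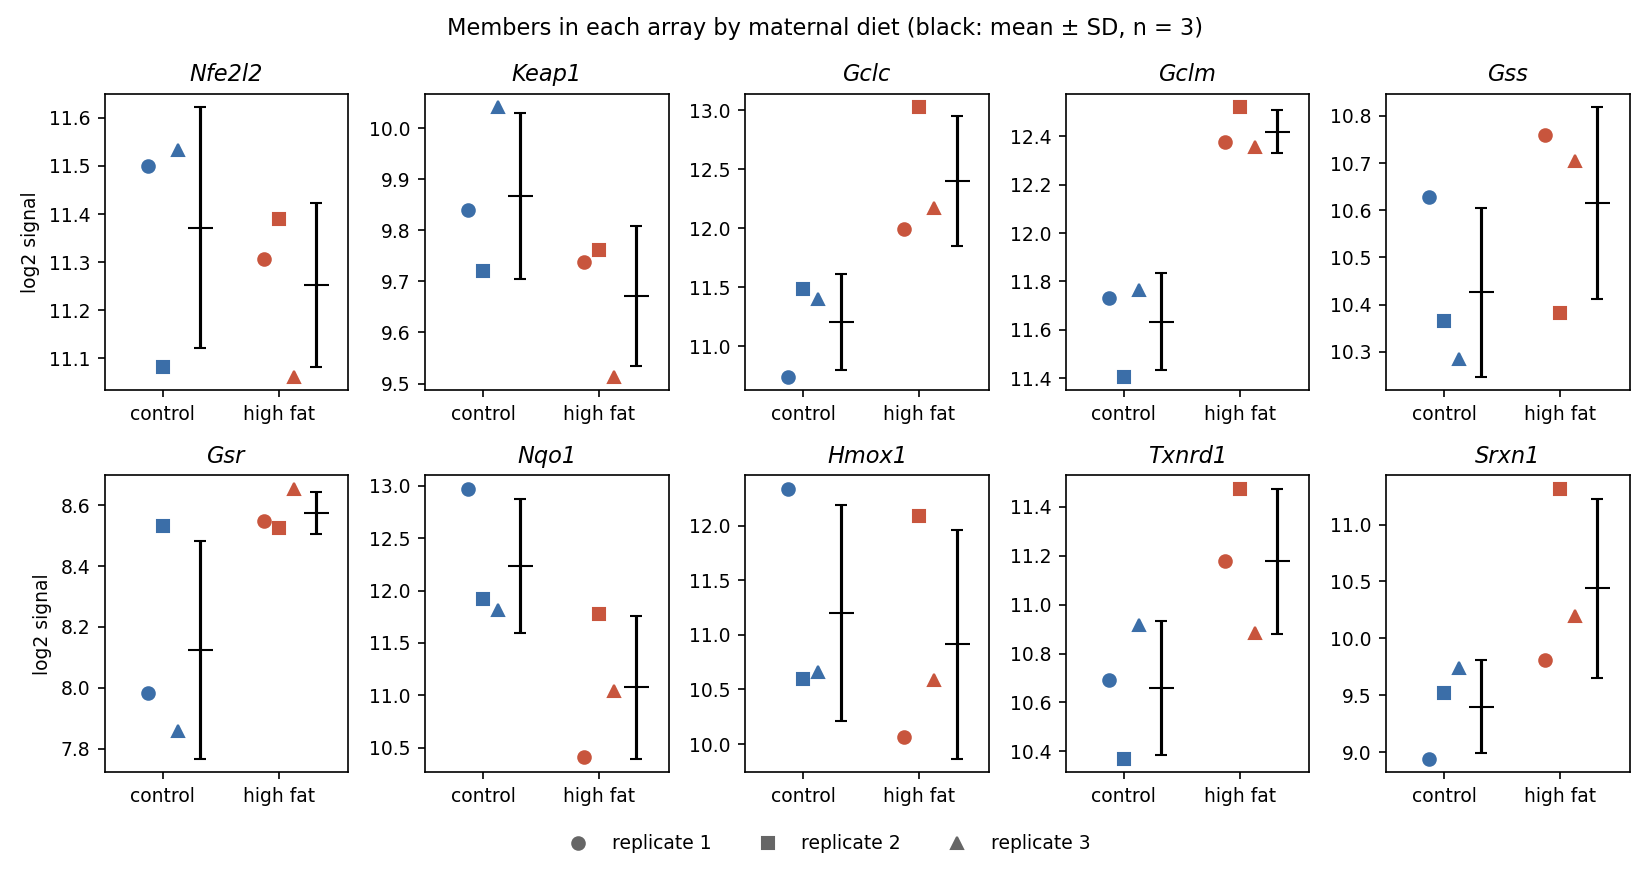
Log2 signal (y axis) of each of the 10 genes in the 3 control and 3 high fat arrays, with the replicate number as the symbol and the mean ± SD in black. The y axes differ between panels and do not start at 0. Gclc, Gclm and Srxn1 lay higher and Nqo1 lower in every high fat array than in every control array, and the other 6 genes overlapped.

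NRF2 and a small MAF protein bind the antioxidant response element, whose core is TGACNNNGC. The RefSeq promoter windows of build GRCr8 run from 250 bases before to 50 after a transcript start. They were searched on both strands for this core and for TGANTCA, the AP-1 site with any base allowed in its middle. TGANTCA overlaps the core where the NNN of the core is TCA. Of the 10 genes, 8 had an entry. The core was found in 3 of them, Gclm, Txnrd1 and Nfe2l2, and in 12.1% of all 33469 windows. TGANTCA was found in Srxn1, as TGAGTCA, and with any middle base in 7.33% of all windows. In Nfe2l2 the match lay from position 39 to 47 after the start. A match is a run of letters, not a bound site, and NRF2 elements can lie outside such a window.
The windows of Gclm, Srxn1 and Nqo1, whose levels separated the diets, and of Txnrd1 at 1 of its 2 listed starts are shown to 10 bases after the start, with the matches in capitals. The Gclm (chr2:213031885-213032144, plus strand) and Txnrd1 (chr7:22755895-22756154, minus strand) capitals are the core as it reads on the opposite strand, at positions -172 to -164 and -78 to -70 counted from the start. Those of Srxn1 (chr3:161064562-161064821, plus strand) are 2 copies of the AP-1 site, at positions -62 to -56 and -5 to 2. Nqo1 (chr19:52220258-52220517, minus strand) held neither. Both listed starts of Txnrd1 lie within the annotated span of the gene. So does most of the Gclc window, which held neither motif and is not printed.
Gclm: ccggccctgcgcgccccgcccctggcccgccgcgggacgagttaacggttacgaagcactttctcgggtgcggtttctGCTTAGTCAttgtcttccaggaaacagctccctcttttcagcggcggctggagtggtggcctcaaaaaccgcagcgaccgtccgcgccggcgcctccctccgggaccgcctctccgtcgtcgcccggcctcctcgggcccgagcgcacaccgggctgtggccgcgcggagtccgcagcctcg
Txnrd1: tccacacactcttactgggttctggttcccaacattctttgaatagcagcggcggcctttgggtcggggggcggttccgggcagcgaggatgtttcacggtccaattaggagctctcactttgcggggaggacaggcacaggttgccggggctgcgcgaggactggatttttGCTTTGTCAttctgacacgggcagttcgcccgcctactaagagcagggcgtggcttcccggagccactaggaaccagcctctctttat
Srxn1: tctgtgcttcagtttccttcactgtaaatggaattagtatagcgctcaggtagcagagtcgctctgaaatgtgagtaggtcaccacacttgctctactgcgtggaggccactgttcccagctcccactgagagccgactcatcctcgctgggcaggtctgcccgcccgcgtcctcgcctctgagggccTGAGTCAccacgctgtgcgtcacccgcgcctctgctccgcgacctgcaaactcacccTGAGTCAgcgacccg
Nqo1: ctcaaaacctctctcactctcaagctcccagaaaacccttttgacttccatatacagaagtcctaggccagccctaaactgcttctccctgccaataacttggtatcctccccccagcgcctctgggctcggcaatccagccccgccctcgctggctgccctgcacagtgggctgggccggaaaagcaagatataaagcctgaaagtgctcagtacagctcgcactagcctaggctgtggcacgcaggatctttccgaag

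Both subunits of glutamate-cysteine ligase, the rate-limiting enzyme of glutathione synthesis, lay higher in the high fat group. Gclm, the modifier subunit, read 11.73, 11.40 and 11.77 log2 units in control replicates 1 to 3, and 12.38, 12.52 and 12.36 in high fat replicates 1 to 3. The high fat arrays lay close together and the gap between the groups was wider than the spread within either. The group means were 11.63 ± 0.20 (SD, n = 3) and 12.42 ± 0.09 (SD, n = 3), a 1.72-fold difference (log2 difference 0.79, SE 0.15, adjusted p = 0.167). Gclm had the smallest unadjusted p of the set (0.00118) and ranked 73 by p among the 10372 genes. Its window, printed above, holds an antioxidant response element core. With any 1 array left out its log2 difference stayed between 0.67 and 0.85.

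Gclc, the catalytic subunit, read 10.74, 11.48 and 11.40 in the control arrays and 11.99, 13.03 and 12.17 in the high fat arrays. Control replicate 1 was the lowest array and high fat replicate 2 the highest. Its means were 11.21 ± 0.41 (SD, n = 3) and 12.40 ± 0.55 (SD, n = 3), a 2.29-fold difference (log2 difference 1.19, SE 0.32, adjusted p = 0.222, unadjusted p = 0.00787). A second Gclc probe set showed the same separation, at 8.07, 8.69 and 8.16 in control arrays and 9.29, 10.49 and 9.38 in high fat arrays. In a fit over all probe sets the log2 difference of this probe set was 1.42 (SE 0.39, adjusted p = 0.521 over all probe sets). Both probe sets were highest in high fat replicate 2. Without that array Gclc was at 0.88.

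The enzymes that complete and recycle glutathione differed less. Gss, glutathione synthetase, which adds glycine in the last step, read 10.63, 10.37 and 10.29 in control arrays and 10.76, 10.38 and 10.70 in high fat arrays. High fat replicate 2 lay within the control range, and the difference was 0.19 (SE 0.16, adjusted p = 0.646). Gsr, glutathione reductase, which returns oxidized glutathione to its reduced form, read 7.98, 8.53 and 7.86 in control arrays and 8.55, 8.53 and 8.65 in high fat arrays. Control replicate 2 stood at the level of the high fat arrays, and the other two controls lay below them. The difference was 0.45 (SE 0.20, unadjusted p = 0.0560, adjusted p = 0.369). Without control replicate 2 it was 0.65, and Gsr then met the looser rule (unadjusted p = 0.00417, adjusted p = 0.226). With any 1 of the other 5 arrays left out it was 0.32 to 0.48, and the unadjusted p was 0.0913 to 0.165.

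Srxn1 and Txnrd1 serve the thioredoxin branch of the NRF2 programme. Srxn1, sulfiredoxin, repairs over-oxidized peroxiredoxins. It read 8.94, 9.52 and 9.74 in control arrays and 9.81, 11.32 and 10.19 in high fat arrays. The groups did not overlap, but only 0.07 log2 units separated control replicate 3 from high fat replicate 1. Its means were 9.40 ± 0.41 (SD, n = 3) and 10.44 ± 0.78 (SD, n = 3), a 2.05-fold difference (log2 difference 1.04, SE 0.41, unadjusted p = 0.0382, adjusted p = 0.332). Both other Srxn1 probe sets overlapped between the diets. The brighter of them read 4.46, 5.81 and 5.70 in control arrays and 5.31, 7.45 and 6.49 in high fat arrays. Its control mean, 5.32, lay below the brightness limit and its high fat mean, 6.42, above it. In the fit over all probe sets, which had no brightness filter, it was at 1.09 (SE 0.65), a size given no weight. The dimmest, below the limit, was at 1.57 (SE 0.81). The window of Srxn1, printed above, holds a pair of AP-1 sites and no core. High fat replicate 2 weighed most: without it the difference was 0.60 and the looser rule was not met (unadjusted p = 0.0747). Nor was it met without control replicate 1 (0.81, unadjusted p = 0.118) or without control replicate 2 (1.10, unadjusted p = 0.0673).

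Txnrd1, cytosolic thioredoxin reductase, read 10.69, 10.37 and 10.92 in control arrays and 11.18, 11.47 and 10.88 in high fat arrays. Control replicate 3 lay just above high fat replicate 3, so the groups overlapped. The difference was 1.43-fold (log2 difference 0.52, SE 0.21, unadjusted p = 0.0441, adjusted p = 0.345), under the fold of the looser rule. It met that rule without control replicate 3 (0.65) and without high fat replicate 3 (0.67). With any 1 of the other 4 arrays left out it was 0.37 to 0.53, and the unadjusted p was 0.0799 to 0.137. A second, dimmer probe set of Txnrd1 gave 0.55 (SE 0.28) in the fit over all probe sets, where control replicate 1, at 8.85, and high fat replicate 3, also at 8.85, met.

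**Figure D2:**
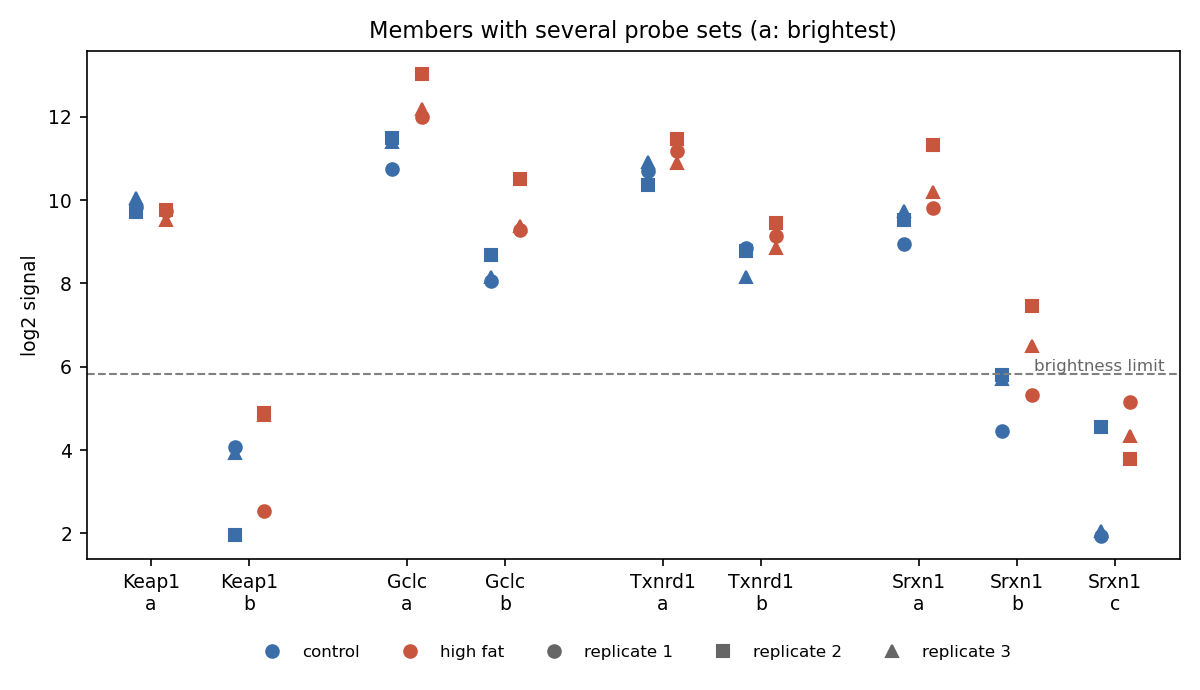
Log2 signal (y axis) of every probe set of the 4 genes with several, in control (blue) and high fat (red) arrays, with the letter a for the brightest probe set. Both Gclc probe sets separated the diets, while the dimmest probe sets of Keap1 and Srxn1 lay below the brightness limit (dashed line) on all arrays and were spread over more than 2 log2 units.

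Nqo1 went the other way. It encodes a quinone reductase and is a widely used readout of NRF2. It read 12.97, 11.92 and 11.81 in control arrays and 10.41, 11.77 and 11.04 in high fat arrays. Control replicate 1 was the highest array and high fat replicate 1 the lowest, while control replicate 3 and high fat replicate 2 were 0.04 log2 units apart. The means were 12.23 ± 0.64 (SD, n = 3) and 11.08 ± 0.68 (SD, n = 3), a 2.23-fold lower level in the high fat group (log2 difference -1.16, SE 0.43, unadjusted p = 0.0306, adjusted p = 0.308). Non-overlapping groups with high fat lower were found in 11.6% of all genes, and with high fat higher in 9.26%. Nqo1 missed the looser rule when any of 3 arrays was left out: control replicate 1 (-0.79, unadjusted p = 0.0893), high fat replicate 1 (-0.83, unadjusted p = 0.0921) or high fat replicate 3 (-1.14, unadjusted p = 0.0675).

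Hmox1, heme oxygenase 1, which breaks down heme and answers to NRF2, heat and heme itself, did not separate the diets. It read 12.34, 10.59 and 10.66 in control arrays and 10.07, 12.09 and 10.59 in high fat arrays. One array in each group, control replicate 1 and high fat replicate 2, lay more than 1 log2 unit above the others. The difference was -0.28 (SE 0.64, adjusted p = 0.880), and its sign turned when control replicate 1 (0.29) or high fat replicate 1 (0.14) was left out. With the 3' to 5' difference as a covariate it was at -0.99, and without high fat replicate 2 at -0.87. Macrophages are rich in Hmox1. The summed linear signal of 7 markers of Kupffer cells, the macrophages of the liver, was 14958 to 17693 in control arrays and 17107, 12122 and 19899 in high fat replicates 1 to 3. Clec4f and Cd5l made up 55.6% to 63.1% of it. In high fat replicate 2 these were low, and Cd163 (9.44) and C1qa (11.22) were below every control array too. Cd68 (9.58), C1qb (10.18) and Adgre1 (8.53) lay within the control range there. Cd163 was lower in every high fat array than in every control array (log2 difference -0.52, SE 0.19). The part of these cells in the Hmox1 levels was not tested.

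For both regulators the difference between diets was within the spread of the arrays. Nfe2l2 read 11.50, 11.08 and 11.53 in control arrays and 11.31, 11.39 and 11.06 in high fat arrays. The difference was -0.12 (SE 0.17, adjusted p = 0.797), and the lowest array of each group was nearly equal. Keap1 read 9.84, 9.72 and 10.04 in control arrays and 9.74, 9.76 and 9.51 in high fat arrays, with a difference of -0.20 (SE 0.15, adjusted p = 0.595). A second Keap1 probe set gave 0.77 (SE 0.89) in the fit over all probe sets, but at a mean of 3.71 it was below the brightness limit. Of the 4 genes with several probe sets, Keap1 was the one whose probe sets differed in sign.

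**Figure D3:**
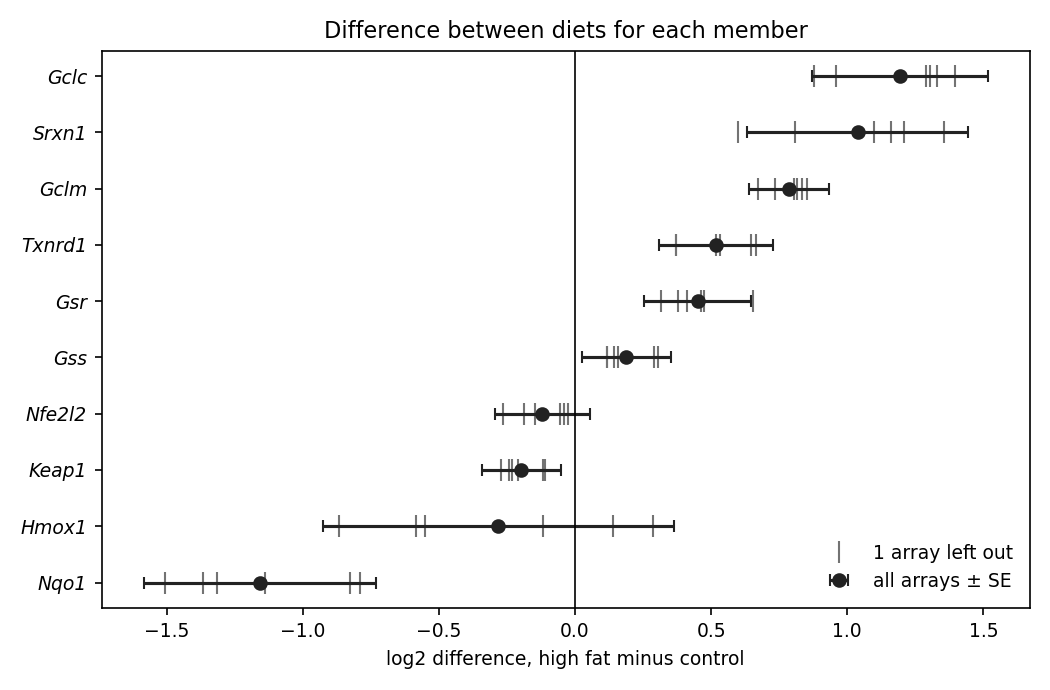
Log2 difference, high fat minus control (x axis), of each of the 10 genes with limma's SE (points and bars), and the value with each of the 6 arrays left out in turn (ticks). Gclm had the narrowest ticks among the 4 genes with the largest differences, and Hmox1 alone had ticks on both sides of 0.

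The arrays differed among themselves within a diet. High fat replicate 2 was the highest of the 3 high fat arrays for 8 of the 10 genes, all but Gss and Gsr. Control replicate 2 was the lowest control for 5. These counts were not made over all genes, so whether they are particular to the 10 genes was not tested. High fat replicate 2 also had the most heat shock transcripts. The summed linear signal of 5 heat shock genes was 69292 in high fat replicate 2, 31584 in replicate 3 and 7557 in replicate 1, against 6158 to 6764 in control arrays. Hspa1a, the inducible HSP70, read 14.19, 12.60 and 7.91 in high fat replicates 2, 3 and 1, and 7.18 to 7.90 in control arrays. Its log2 difference was 4.02 (SE 1.45, adjusted p = 0.303 in limma). Without high fat replicate 1, the one high fat array near the control levels, it was 5.85 (adjusted p = 0.0465). Leaving out that array raises the difference by construction, so no weight is put on this p. With any 1 of the other arrays left out, the adjusted p of Hspa1a was 0.402 to 0.530. Hsph1 was at 1.59 (SE 0.46) and Dnajb1 at 1.38 (SE 0.57), or 0.71 without high fat replicate 2. The part of heat shock in the values of the 10 genes was not tested. Gclc and Gclm met the looser rule without high fat replicate 2 too, at 0.88 (unadjusted p = 0.0152) and 0.73 (unadjusted p = 0.00560).

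Other genes of the pathway were taken from lists. None of these passed the adjusted threshold in limma, and counts at an unadjusted p under 0.05 are given for each list, to be read against the 6.55% of all genes that were higher and the 7.49% lower at that p. Among 13 partners and regulators of NRF2, 11 were tested, 9 above 0 and 2 below. At that p, 2 were higher and 1 was lower, 27.3% of those tested, and the median difference was 0.13. Of these 3, Maff and Nfe2 had a mean below the brightness limit in one diet group and passed the filter through the other. No size is given for them, and no weight is put on the 27.3%, which counts them. Maff, a small MAF protein of the kind with which NRF2 pairs on DNA, read 6.44, 4.08 and 4.98 in control arrays and 7.46, 8.07 and 6.67 in high fat arrays; of the control arrays, replicates 2 and 3 lay below the limit. Mafk, of the same family, was at 0.59 (SE 0.19, adjusted p = 0.276). Nfe2, a relative of Nfe2l2 that acts in erythroid cells and megakaryocytes, read 7.60, 6.42 and 9.42 in control arrays and 5.70, 5.42 and 5.0, all below the limit, in high fat arrays. Mafg, Cul3, Rbx1, Sqstm1 and Nfe2l1 had differences between -0.17 and 0.20.

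Of 23 other NRF2 target genes, 18 were tested, 10 above 0 and 8 below. At that p, 3 were higher and 2 lower, 27.8% of those tested, and the median was 0.12. Of these 5, Slc7a11 and Gpx2 had a mean below the limit in one group and passed the filter through the other, so they too are given without a size. The 27.8% counts them and is given no weight either. Slc7a11, the cystine carrier that supplies cysteine for glutathione, read 4.43, 5.56 and 4.87 in control arrays and 6.16, 7.58 and 6.49 in high fat arrays, with all 3 control levels below the limit. Me1, malic enzyme, which makes NADPH, was 1.86-fold higher (difference 0.90, SE 0.13, adjusted p = 0.131). Ephx1, microsomal epoxide hydrolase, was 2.06-fold higher (difference 1.04, SE 0.27, adjusted p = 0.211). Downward, Pgd, of the pentose phosphate pathway, was at -0.46. Gpx2, a glutathione peroxidase, read 7.41, 7.63 and 5.77 in control arrays and 5.48, 6.01 and 4.67 in high fat arrays, so the groups overlapped.

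Of 23 genes that supply, turn over or use glutathione, all were tested, 11 above 0 and 12 below. At that p, 1 was higher and 3 were lower, 17.4% of those tested against 14% of all genes, and the median was -0.04. Slc3a2, the heavy chain that partners Slc7a11 and other amino acid carriers, was 2.00-fold higher (difference 1.0, SE 0.20, adjusted p = 0.184). Cbs, which starts the making of cysteine from homocysteine, was 2.00-fold lower (difference -1.0, SE 0.24, adjusted p = 0.198). Oplah, which returns 5-oxoproline from glutathione breakdown to glutamate, was 1.68-fold lower (difference -0.75, SE 0.17, adjusted p = 0.191). Cth, the next enzyme after Cbs, was at -0.19 (SE 0.26), Gpx1 at 0.05 and Gpx4 at -0.09. Of 9 further genes of the thioredoxin system, 1 was higher and 1 lower at that p, 22.2% of those tested, and the median was 0.14. Txnip, which binds and inhibits thioredoxin, was at 0.70 (SE 0.21, adjusted p = 0.251). Txn2, mitochondrial thioredoxin, was at -0.43 (SE 0.13, adjusted p = 0.256), and Selenow, a selenoprotein, at 0.34 (SE 0.25), or 0.07 without high fat replicate 2. The median of this list was -0.06 without control replicate 3 and 0.32 without control replicate 2.

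**Figure D4:**
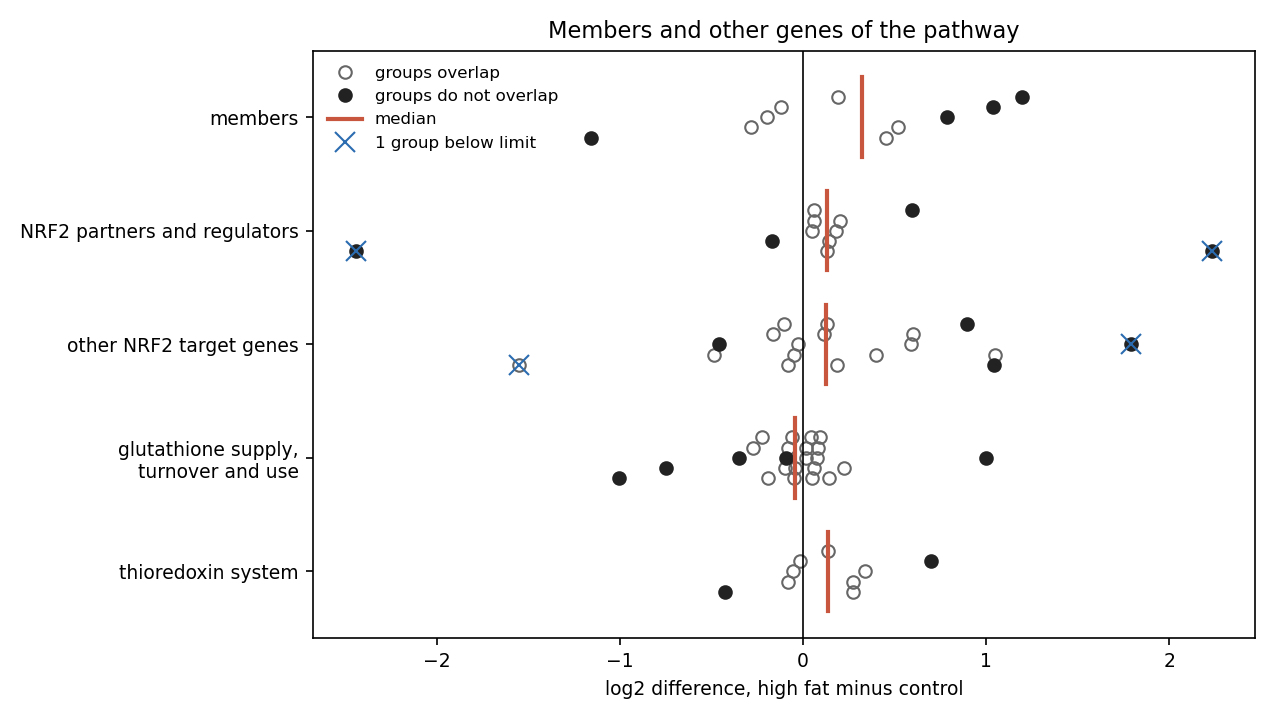
Log2 difference, high fat minus control (x axis), of the 10 genes and of 4 lists of other pathway genes, with filled points where the groups did not overlap a red line at each list's median and a cross on the 4 genes whose mean lay below the brightness limit in one group. The medians lay between -0.04 and 0.32, and each list had single genes on both sides of 0.

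Some genes followed Gclm or Gclc closely over the 6 arrays. By the root mean square difference between mean-centred log2 profiles, the nearest to Gclm were St3gal6 (0.07), a sialyltransferase, Gnl3 (0.07), nucleostemin, and Wdr3 (0.07), a WD repeat gene. For Gclc the nearest was Srxn1 (0.18), itself of the set, then Snx10 (0.22), a sorting nexin, and LOC100911177 (0.23). Snx10 had a difference of 0.81 between the diets, and 0.51 without high fat replicate 2. High fat replicate 2 was the highest array for Gclc and all 3 of these. With 10372 genes and 6 arrays some near matches are found by any such search.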

How the data were processed

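The submitters deposited 1 value table, with log2 signals of 31099 probe sets on 6 arrays. That the deposited values are log2 was found from the values: only base 2 gives each array the same 2% trimmed mean, 500.2, when the logarithm is undone. The lowest values had been set to 0. The sources used here do not name the software that summarized the probes, and detection calls were not used. Per the labels' protocols, TRIzol RNA was labelled with the GeneChip 3' IVT Express kit.

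The 57 control probe sets were left out and the arrays were quantile-normalized, since a quartile differed between arrays by up to 0.22. Of 31042 probe sets, 20826 had 1 gene in the annotation, 436 several and 9780 none, and 20758 of the 20826 were matched to a RefSeq table and took its symbol. The lowest 40% by mean were left out. The diets were compared in R 4.3.3 by lmFit and eBayes of limma 3.58.1 (2-sided, Benjamini-Hochberg over 10372 genes), and probe sets of a gene in a separate fit over all 31042. The procedure was tested on simulated data, and the outcome of that test is not reported here. Figures used matplotlib 3.10.9 in Python 3.11.15. The number of arrays limits the precision, and a p-value here reflects only how these 6 pups varied.

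The 10 genes and all lists were chosen with earlier results of these data known. The text names all 10, the 3 genes of each pathway list with the smallest p, and the 3 nearest profiles to the 2 members with the smallest p. Other genes, such as Xist, Pgd and Gpx2, were chosen after their values were seen. Alternatives covered each array left out, RNA integrity, the replicate number, weights for arrays, the variance model, averaged probe sets, the brightness filter and normalization, with the same probe set of a gene kept in all but the averaging.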

Additional observations from a re-analysis of the deposited data

How the results depend on the processing

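Over 15 alternatives, 147 of 150 values of the 10 genes kept their direction and stayed above the adjusted threshold, and no alternative brought one of them past it (lowest adjusted p 0.0728, for Gclm). The 3 that turned were Keap1 with all its probe sets averaged (0.29) and Hmox1 without control replicate 1 (0.29) or high fat replicate 1 (0.14); with 1 array left out Hmox1 ranged from -0.87 to 0.29. The 4 genes of the looser rule became 2, Gclc and Gclm, with no brightness filter, and ranged from 2 to 5 with 1 array left out (2 without control replicate 1). The 5 genes at an unadjusted p under 0.05 became 2 with no brightness filter, 3 with the replicate block, 3 with the covariate for RNA integrity and 2 to 5 with 1 array left out. They became 4 with array weights, and 6 with the values as deposited or with the lowest 60% of probe sets left out. In those last settings Gsr passed too in limma (unadjusted p = 0.0482 and 0.0458). Gclc and Gclm stayed under an unadjusted p of 0.05 in every alternative run. Over the whole table, the 4 genes past the adjusted threshold became 1 with no brightness filter and 0 to 4 with 1 array left out. In limma with the covariate for RNA integrity they became 0 (1100 genes at an unadjusted p under 0.05). Their number was 6 with the lowest 60% of probe sets left out, and 5 with averaged probe sets or with the other variance model. The replicate block gave 0 such genes in limma (1102 at an unadjusted p under 0.05), and 3 of the 10 genes by the looser rule. Same-numbered arrays did not deviate together (correlations -0.13, -0.13 and -0.14), so the numbers are not taken as pairs. With 1 array left out the list medians ranged from 0.04 to 0.18 for NRF2 partners, 0.03 to 0.23 for other targets and -0.08 to -0.01 for glutathione genes. With the covariate for RNA integrity Gclc was at 1.15, Gclm at 0.80, Srxn1 at 0.98 and Nqo1 at -1.64; Srxn1 then missed the looser rule on its unadjusted p. Nqo1 missed it with the replicate block (unadjusted p = 0.0630). Txnrd1 had an unadjusted p of 0.0524 with array weights, 0.0656 with no brightness filter, 0.0789 with the covariate and 0.0989 with the block, and Gsr was at 0.38 (unadjusted p = 0.153) with the covariate. The median of the erythroid markers ranged from -0.71 (without control replicate 3) to 0.0021 (without control replicate 1). For 20 other named genes (the 3 of each pathway list and of the heat shock genes with the smallest p, and the nearest profiles) the alternatives were added after the data were seen, and of 296 values 1, of Hspa1a, passed the adjusted threshold. Other genes named were not run.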
